A study of Mus musculus with 9 samples.

Results

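The genes described here are those of DNA replication and mitosis, 35 genes listed by symbol. For 1 of them, Ccnb1, there was no array value, and it enters only the promoter counts. The other 34 had a transcript cluster (the set of probes that reports 1 gene) with their symbol on the array. They were set among 19572 transcript clusters that carry 1 gene symbol. By function 14 of the measured genes were grouped as replication genes and 20 as mitosis genes. White adipose tissue of male mice was hybridized to Clariom S mouse arrays, with 1 array per sample and 3 arrays in each of 3 groups. Wild type mice of the C57BL/6JHamSlc-+/+ strain received vehicle for 42 days. Obese C57BL/6JHamSlc-ob/ob mice, which lack functional leptin in every tissue, received vehicle for the same time. The third group was ob/ob mice gavaged for 6 weeks with Vigna umbellata (rice bean) extract, called VE here, at a dose of 100 mg/kg. All mice were 6 weeks old when obtained, had 1 week of acclimatization and ate standard chow, so both ob/ob groups share genotype, diet and age, and no wild type mice received VE. The fat depot and the vehicle were not given in the sources used here. The design text gives 3 mice per group.

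A dividing cell passes from a growth phase into S phase, in which the DNA is copied, and then through a second gap into mitosis, in which the copies are pulled apart. Before S phase, licensing factors load the MCM helicase ring onto DNA, and cyclin E with its kinase CDK2 starts copying. Cyclins A and B with CDK1 drive mitosis, and the anaphase-promoting complex (APC/C) ends it by marking cyclins for destruction. Most of these transcripts are low in resting cells. Mature adipocytes do not divide in the ordinary course of adult life, while adipose macrophages, endothelial cells and stromal progenitors can.

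Values are log2 signals, and a difference of 1 on this scale is a doubling. Each SE belongs to a log2 difference estimated by limma from all 9 arrays, an SD is that of 3 arrays, and a gene was called when its two-sided limma p-value, adjusted by Benjamini-Hochberg over all 19572 clusters, was under 0.05. Array medians lay between 6.26 and 6.37, and precision is limited by having 3 arrays a group. The 8 adipocyte markers averaged 16.09 to 17.57 on every array, the adipocyte signal that white adipose tissue should carry. The mean of 12 epithelium markers was 10.18, 10.55 and 8.12 on wild type arrays 1, 2 and 3 and 4.51 to 5.07 on the 6 ob/ob arrays. All 3 wild type arrays carried more of this signal than any ob/ob array. It was strongest on wild type arrays 1 and 2, and some values and counts are given with and without those 2. Array 3 still carries epithelial signal. For fits without those 2 arrays the share of all clusters called is not given here, so such counts have no background beside them. A smooth muscle signal was strongest on wild type array 2, as given below. In bulk tissue, fewer cells of a type and less RNA per cell cannot be told apart.

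Many genes of cell division were higher in the fat of obese mice given vehicle than in lean mice, and none was called between obese mice with and without the extract. Between ob/ob vehicle and wild type mice 21 of the 34 measured genes were called higher, 0 were called lower and 13 did not pass. Among all clusters 9.02% were called higher and 5.05% lower. The difference was above 0 for all 34 genes, also after quantile normalization and after median centring, with a median of 1.37 (range 0.61 to 3.77) against −0.04 over all clusters. Mitosis genes had 15 of 20 called, with a median difference of 1.86. Replication genes had 6 of 14 called, with a median of 1.11. That count fell to 3 when wild type array 1 was left out, and likewise for array 2 or array 3 of ob/ob vehicle. On 28 of the 34 genes each ob/ob vehicle array lay above each wild type array, an arrangement found on 15.7% of all clusters. Without wild type arrays 1 and 2, the remaining wild type array is taken to vary as the ob/ob groups do. In that fit the differences of Cdk2, Mcm3 and Mcm6 fell to 0.13, 0.12 and 0.54. Those of Rrm2 and Mki67 rose to 2.40 and 4.47.

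**Figure D1:**
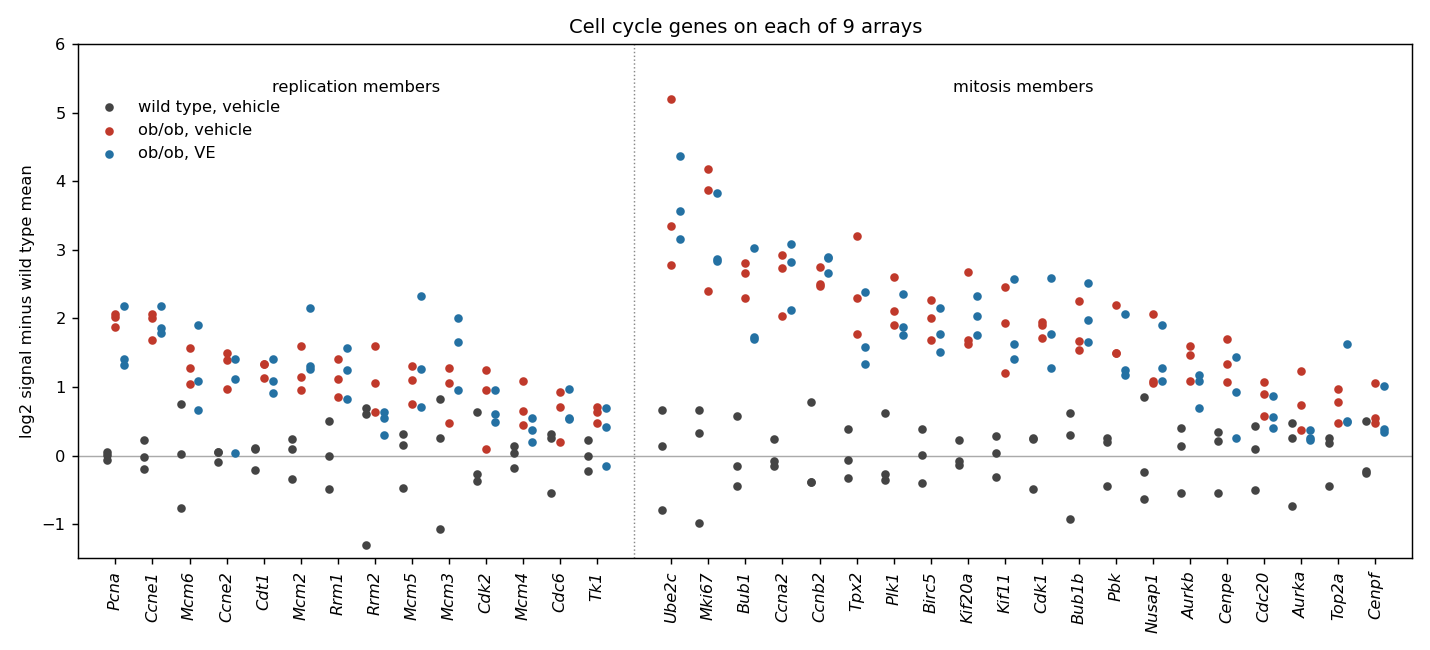
Log2 signal of each of the 34 genes on each of 9 arrays, minus the mean of the 3 wild type arrays of that gene (vertical axis); genes are ordered by their difference between ob/ob vehicle and wild type within the replication genes (left) and the mitosis genes (right). Red and blue points, the ob/ob arrays given vehicle or VE, lie in the same range, and both lie above the black wild type points for most genes, most of all for Ube2c and Mki67.

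Promoters were read for the short sequence words that genes of the cell cycle are known to share. The cell cycle homology region (CHR, searched as TTTGAA) is the word through which the DREAM repressor and the MMB activator act on mitotic genes, the CCAAT box (searched as CCAAT) binds NF-Y, and E2F factors bind words such as those searched here, TTCCCGC with its close variants, which were written as TTGGCGC in one form, as TTCGCGC in another form and as TTGCCGC in the last form. All were searched on both strands, and words can overlap, as a pair of CCAAT words does in Ube2c, E2F words do in Mcm5 and Mcm6, and an E2F and a CCAAT word do in Ccnb1. RefSeq windows (assembly GRCm38.p6) of 300 bases, 250 before and 50 after the annotated start, were held for 28 of the 35 genes, Ccnb1 included. A CHR word stood in 11 of 16 mitosis windows (68.8%) and in 1 of 12 replication windows (8.33%), that of Mcm2, against 17.9% of all 32851 windows. E2F words stood in 8 of 12 replication windows (66.7%) and in 3 of 16 mitosis windows (18.8%, those of Ccnb1, Cdk1 and Mki67), against 9.57% of all windows. CCAAT words stood in 87.5% of mitosis windows, 66.7% of replication windows and 37.4% of all windows. These are counts of letters, with no test, and a match is not a shown binding site.

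Shown first are 5 mitosis genes called higher in ob/ob mice, as the 200 bases before the start site, 5′ to 3′ in the direction of the gene, with CHR, CCAAT and E2F words on either strand in capitals (TTCAAA and ATTGG are the CHR and CCAAT words of the other strand). All 5 are examples that carry both CHR and CCAAT words. The called genes Birc5, Bub1 and Cenpe had no CHR word in their windows and are not shown. Ccnb2 has 3 CCAAT words, beginning at positions −87, −54 and −21 from the start, and Kif11 has 1 CCAAT and 1 CHR word. A second CHR word of Ccnb2, at positions 5 to 10 after the start, lies outside the printed bases.
Ccnb2 (chr9:70421555-70421754, minus strand): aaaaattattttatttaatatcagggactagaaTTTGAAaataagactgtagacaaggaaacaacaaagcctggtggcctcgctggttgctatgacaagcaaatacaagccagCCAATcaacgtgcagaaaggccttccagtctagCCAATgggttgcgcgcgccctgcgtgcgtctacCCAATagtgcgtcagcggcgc
Ube2c (chr2:164769729-164769928, plus strand): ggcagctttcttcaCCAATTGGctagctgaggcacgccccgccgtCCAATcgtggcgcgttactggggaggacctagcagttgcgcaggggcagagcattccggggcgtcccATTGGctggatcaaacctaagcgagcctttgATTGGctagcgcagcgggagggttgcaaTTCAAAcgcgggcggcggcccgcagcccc
Cdk1 (chr10:69352913-69353112, minus strand): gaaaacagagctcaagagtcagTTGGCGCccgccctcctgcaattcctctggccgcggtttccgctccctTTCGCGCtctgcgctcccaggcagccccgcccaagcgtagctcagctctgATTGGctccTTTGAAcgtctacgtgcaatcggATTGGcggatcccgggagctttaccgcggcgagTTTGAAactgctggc
Mki67 (chr7:135716380-135716579, minus strand): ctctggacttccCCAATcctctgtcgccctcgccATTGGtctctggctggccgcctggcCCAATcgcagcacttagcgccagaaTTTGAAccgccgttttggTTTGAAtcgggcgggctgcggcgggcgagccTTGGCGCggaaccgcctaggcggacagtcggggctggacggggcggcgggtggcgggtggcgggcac
Kif11 (chr19:37376182-37376381, plus strand): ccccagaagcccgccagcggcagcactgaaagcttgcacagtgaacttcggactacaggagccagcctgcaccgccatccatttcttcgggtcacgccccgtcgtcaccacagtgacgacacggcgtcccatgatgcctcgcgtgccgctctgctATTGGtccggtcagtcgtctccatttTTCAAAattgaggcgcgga

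For contrast, 4 replication genes are shown in the same way, of which Mcm5 and Mcm6 were not called between ob/ob vehicle and wild type. Mcm5 and Mcm6 carry overlapping E2F words, Rrm1 carries 1 between 2 CCAAT words, and Pcna, the replication gene with the largest difference, shows 1 CCAAT word and no match for E2F or CHR in this window.
Mcm5 (chr8:75109309-75109508, plus strand): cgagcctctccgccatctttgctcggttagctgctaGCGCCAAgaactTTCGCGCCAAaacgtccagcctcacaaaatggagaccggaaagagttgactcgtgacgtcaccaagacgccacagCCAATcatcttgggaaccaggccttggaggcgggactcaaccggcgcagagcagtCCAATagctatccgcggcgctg
Mcm6 (chr1:128359706-128359905, minus strand): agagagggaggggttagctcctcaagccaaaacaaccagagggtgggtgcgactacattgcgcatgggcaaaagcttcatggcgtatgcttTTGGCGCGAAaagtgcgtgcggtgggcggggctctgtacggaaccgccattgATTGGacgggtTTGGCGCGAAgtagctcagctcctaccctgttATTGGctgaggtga
Rrm1 (chr7:102441495-102441694, plus strand): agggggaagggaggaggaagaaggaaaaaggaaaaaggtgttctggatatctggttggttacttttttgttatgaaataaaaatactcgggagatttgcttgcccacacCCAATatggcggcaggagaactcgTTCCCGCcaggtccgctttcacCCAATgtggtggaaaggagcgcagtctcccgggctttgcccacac
Pcna (chr2:132253181-132253380, minus strand): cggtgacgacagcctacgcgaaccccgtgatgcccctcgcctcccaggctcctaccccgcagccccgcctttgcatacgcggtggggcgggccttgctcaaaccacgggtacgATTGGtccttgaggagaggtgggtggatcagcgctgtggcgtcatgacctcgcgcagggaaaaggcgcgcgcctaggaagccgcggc

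**Figure D2:**
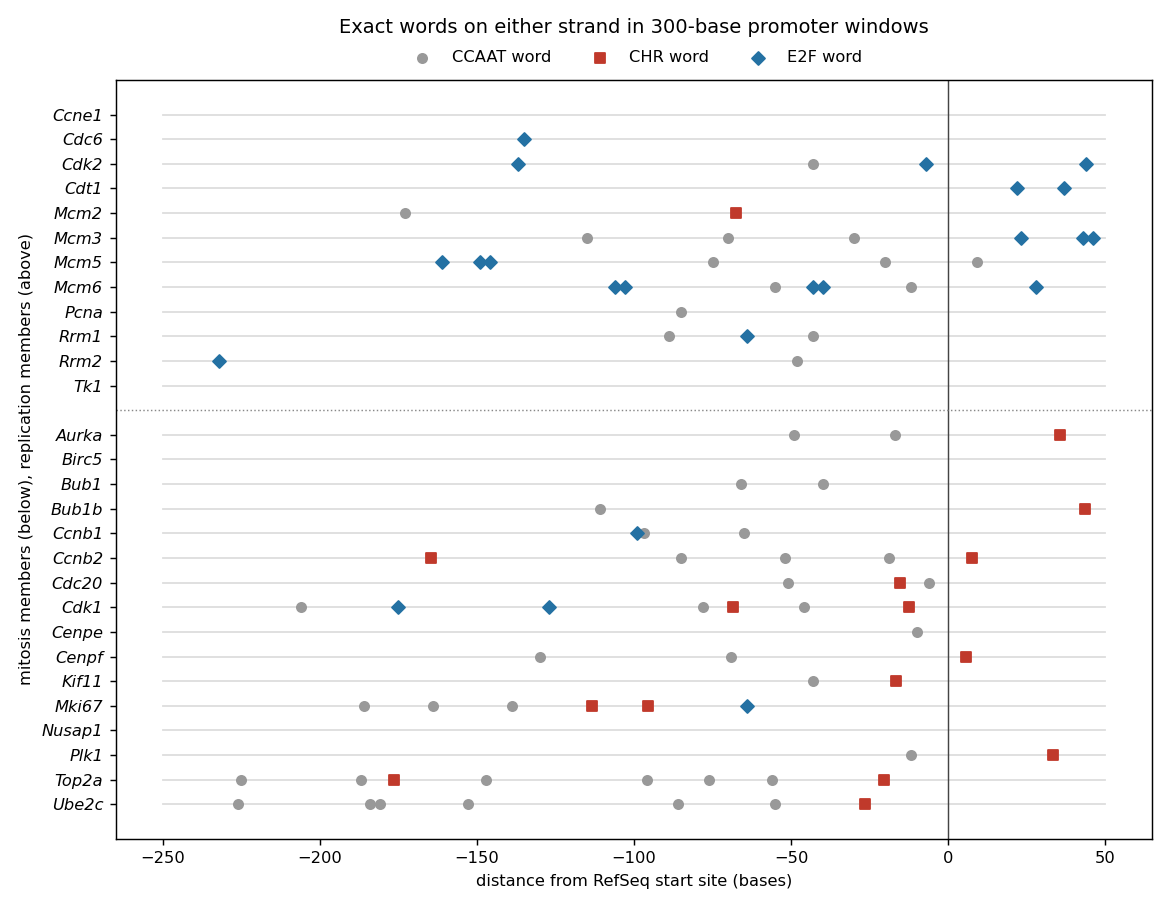
Position of each word, in bases from the RefSeq start site (horizontal axis), in the promoter windows of 12 replication genes (upper block) and 16 mitosis genes (lower block); grey circles are CCAAT words, red squares CHR words and blue diamonds E2F words. CHR words lie mostly in the lower block, many close to the start, and E2F words mostly in the upper block.

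Among the mitotic cyclins and their kinase all 3 measured genes were called. Ccnb2, cyclin B2, read 7.21, 6.04 and 6.04 for wild type, 9.18, 8.93 and 8.90 for ob/ob vehicle and 9.32, 9.31 and 9.09 for VE mice. Neither ob/ob group overlapped the wild type group, and ob/ob vehicle was 5.95-fold higher (log2 difference 2.57 ± 0.32, SE, n = 3; limma adjusted p = 5.75e-04). Ccna2, cyclin A2, which acts in S phase and in mitosis, read 4.25, 4.33 and 4.65 for wild type, 6.45, 7.34 and 7.14 for ob/ob vehicle and 7.49, 7.23 and 6.53 for VE mice. Its ob/ob arrays all stood above its wild type arrays (2.57 ± 0.32, SE, n = 3; limma adjusted p = 6.13e-04). Cdk1, the kinase that both cyclins activate, was dim on every array, at 3.32, 2.59 and 3.34 for wild type, 4.80, 4.99 and 5.02 for ob/ob vehicle and 5.67, 4.85 and 4.35 for VE mice. All 9 Cdk1 values lay below the array median, while ob/ob vehicle and wild type did not overlap (1.85 ± 0.35, SE, n = 3; limma adjusted p = 0.00619; 1.60 and adjusted p = 0.0519 without wild type arrays 1 and 2).

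Of the mitotic kinases and the chromosomal passenger genes 4 of 5 were called. Birc5, survivin, a passenger protein that helps place Aurora B, read 7.18, 6.81 and 6.40 for wild type, 9.07, 8.48 and 8.81 for ob/ob vehicle and 8.95, 8.31 and 8.57 for VE mice (1.99 ± 0.28, SE, n = 3; limma adjusted p = 0.00137). Plk1, a kinase of mitotic entry and spindle formation, was higher by 2.20 ± 0.32, the kinase Pbk by 1.73 ± 0.33 and Aurkb, the passenger kinase Aurora B, by 1.38 ± 0.29 (limma adjusted p = 0.0111). Aurka, the centrosomal Aurora kinase, did not pass: it read 6.80, 5.60 and 6.59 for wild type, 7.56, 7.06 and 6.70 for ob/ob vehicle and 6.55, 6.58 and 6.70 for VE mice. Its ob/ob vehicle array 3 lay below wild type array 1 (0.78 ± 0.34, SE, n = 3; limma adjusted p = 0.166). The 2 Aurora genes thus fell on different sides of the threshold, and the difference between their changes was not tested.

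Checkpoint and APC/C genes included the largest difference of the set. Ube2c, the ubiquitin-conjugating enzyme of the APC/C, read 5.20, 3.74 and 4.68 for wild type, 9.74, 7.88 and 7.32 for ob/ob vehicle and 8.90, 8.11 and 7.69 for VE mice. Relative to wild type it was 13.7-fold higher in ob/ob vehicle mice (3.77 ± 0.61, SE, n = 3; limma adjusted p = 0.00282), with an SD of 1.27 in ob/ob vehicle mice, where array 1 stood above the other 2. Without that array the difference was 3.06 (adjusted p = 0.00558). Bub1, a kinase of the spindle checkpoint, read 4.45, 4.16 and 5.18 for wild type, 6.90, 7.26 and 7.41 for ob/ob vehicle and 7.63, 6.33 and 6.30 for VE mice. That was a difference of 2.59 ± 0.40 (SE, n = 3; limma adjusted p = 0.00208), and no ob/ob array reached down to the wild type values. Its relative Bub1b, BubR1, was higher by 1.82 ± 0.41 (limma adjusted p = 0.0152), a call not kept when ob/ob vehicle array 3 was left out (1.61, adjusted p = 0.0618). Cdc20, the activator that the checkpoint restrains, was the dimmest of this group, at 3.50, 2.56 and 3.16 for wild type, 3.96, 4.14 and 3.65 for ob/ob vehicle and 3.94, 3.63 and 3.47 for VE mice. It did not pass (0.84 ± 0.29, SE, n = 3; limma adjusted p = 0.0799), although ob/ob vehicle and wild type did not overlap, and it passed without wild type array 1 (1.06, adjusted p = 0.0431) or after quantile normalization (0.92, adjusted p = 0.0458).

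Spindle, kinetochore and chromosome genes were called in 5 of 8 cases. Mki67, which encodes the proliferation antigen Ki-67 that coats mitotic chromosomes, read 8.59, 8.25 and 6.93 for wild type, 10.32, 12.09 and 11.79 for ob/ob vehicle and 11.75, 10.76 and 10.78 for VE mice. It was 11.1-fold higher in ob/ob vehicle (3.48 ± 0.55, SE, n = 3; limma adjusted p = 0.00240). Wild type arrays 1 and 2 had more Mki67 than array 3, and without arrays 1 and 2 the Mki67 difference was 4.47. Over the 20 mitosis genes, array 2 was the lowest wild type array for 14 and the highest for 0. Kif20a, a kinesin of the midzone and of cytokinesis, read 3.69, 3.63 and 4.00 for wild type, 5.40, 6.44 and 5.45 for ob/ob vehicle and 6.09, 5.80 and 5.52 for VE mice (1.99 ± 0.31, SE, n = 3; limma adjusted p = 0.00236). The spindle assembly factor Tpx2 was higher by 2.42 ± 0.40 and the spindle motor Kif11 by 1.86 ± 0.39, the latter losing its call without wild type arrays 1 and 2 (1.58, adjusted p = 0.103). Cenpe, a kinetochore motor, was higher by 1.36 ± 0.36 (limma adjusted p = 0.0298), a call that ended without wild type array 2 (1.09, adjusted p = 0.0806), vehicle-treated ob/ob array 2 (1.38, 0.0865) or array 3 (1.20, 0.104), or array 2 of VE (1.36, 0.0516), or wild type arrays 1 and 2 together (1.02, 0.200). Top2a, the topoisomerase that untangles sister chromatids, did not pass, at 7.22, 6.60 and 7.30 for wild type, 7.82, 7.51 and 8.01 for ob/ob vehicle and 8.67, 7.53 and 7.54 for VE mice. Every ob/ob array of Top2a still lay above every wild type array (0.74 ± 0.35, SE, n = 3; limma adjusted p = 0.196). Cenpf, a kinetochore protein (0.69 ± 0.30), and Nusap1, which bundles spindle microtubules (1.41 ± 0.43; limma adjusted p = 0.0554), did not pass either. Nusap1 passed without wild type array 1 (1.84, adjusted p = 0.0148), after median centring (1.48, 0.0476), with a robust prior (0.0492) and with the dimmest 30% of clusters left out (0.0459).

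**Figure D3:**
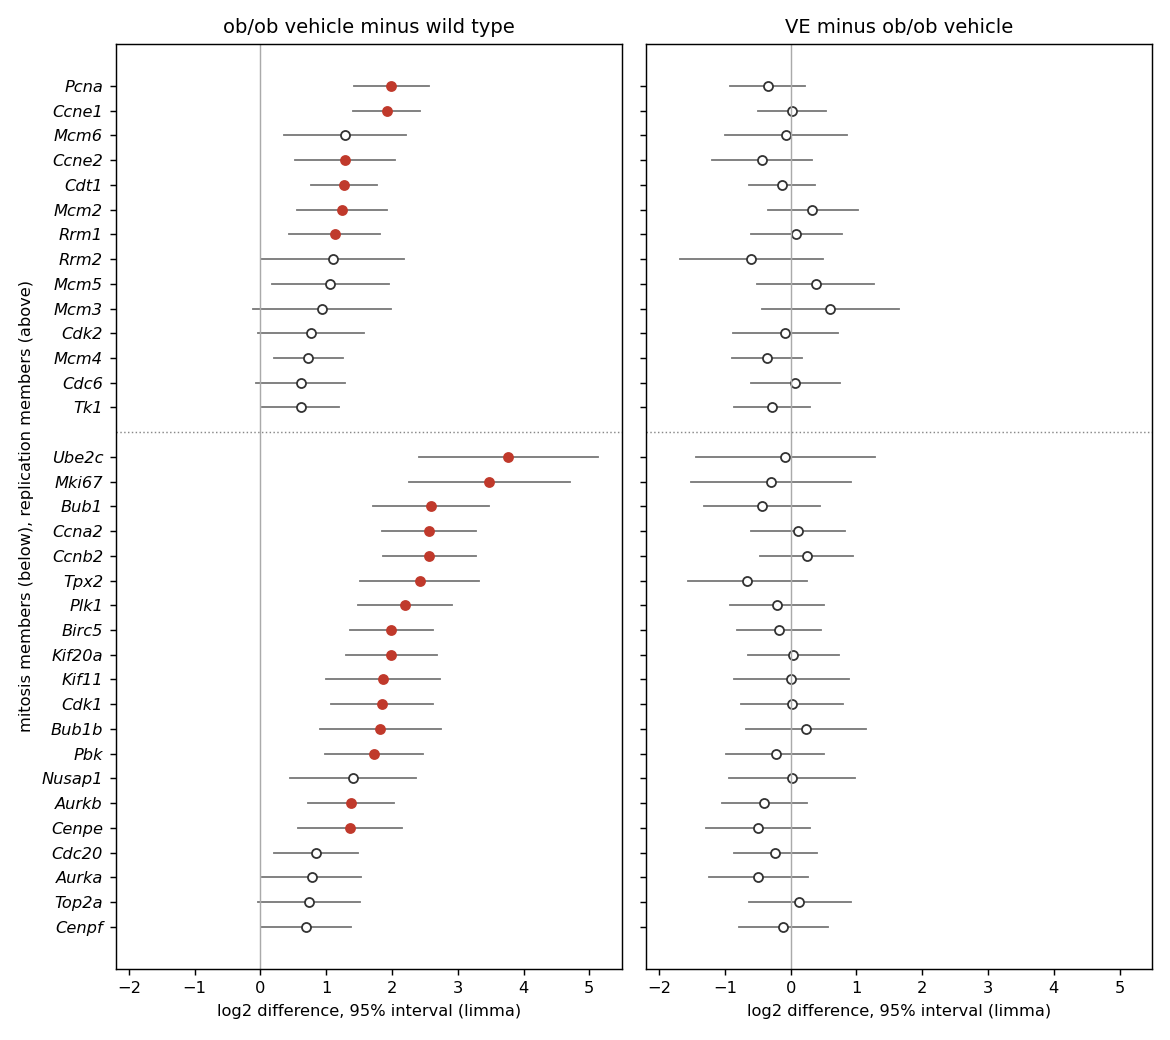
Log2 difference of each gene with its 95% interval in the limma fit (horizontal axis), between ob/ob vehicle and wild type (left) and between VE and ob/ob vehicle (right), for replication genes (upper block) and mitosis genes (lower block). Filled red points passed a limma adjusted p of 0.05: 21 on the left and 0 on the right, where every interval includes 0.

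Among replication genes the differences ran from 0.61 to 1.99, a range that overlaps the 0.69 to 3.77 of mitosis genes, and the difference between the 2 groups of genes was not tested. Of the genes that start S phase, Ccne1, cyclin E1, read 6.09, 6.27 and 6.51 for wild type, 8.30, 8.35 and 7.98 for ob/ob vehicle and 8.47, 8.15 and 8.08 for VE mice. Its ob/ob arrays were close together and all above wild type (1.92 ± 0.23, SE, n = 3; limma adjusted p = 4.63e-04). Cdk2, the kinase partner of cyclin E, did not pass, at 8.15, 8.05 and 9.05 for wild type, 9.66, 9.37 and 8.52 for ob/ob vehicle and 9.37, 9.03 and 8.91 for VE mice. Wild type array 3 lay inside the ob/ob range for Cdk2 (0.77 ± 0.36, SE, n = 3; limma adjusted p = 0.197). Ccne2, cyclin E2, was higher by 1.28 ± 0.34 (limma adjusted p = 0.0320), a call that ended without any 1 of wild type arrays 1 and 2 (adjusted p = 0.0767 and 0.0591) and ob/ob vehicle arrays 1, 2 and 3 (0.0910, 0.0558 and 0.104), at differences of 1.18 to 1.44 in those fits. It also ended with array weights (1.22, adjusted p = 0.0830) and without wild type arrays 1 and 2 (1.24, 0.156).

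Of the 7 licensing genes 2 were called higher and 5 did not pass. Cdt1, which brings the MCM ring to origins, read 6.54, 6.22 and 6.53 for wild type, 7.56, 7.77 and 7.76 for ob/ob vehicle and 7.52, 7.84 and 7.34 for VE mice (1.27 ± 0.22, SE, n = 3; limma adjusted p = 0.00453). The MCM genes encode subunits of 1 ring, yet of 5 measured only Mcm2 passed. Mcm2 read 5.46, 5.89 and 6.04 for wild type, 6.76, 7.40 and 6.95 for ob/ob vehicle and 7.95, 7.10 and 7.06 for VE mice (1.24 ± 0.31, SE, n = 3; limma adjusted p = 0.0245). That call ended without wild type array 1 (1.07, adjusted p = 0.0712), ob/ob vehicle array 2 (1.06, 0.102) or 3 (1.28, 0.0609) and without wild type arrays 1 and 2 (1.00, 0.180). Mcm6 stood at 1.29 ± 0.42 (limma adjusted p = 0.0686, 0.0150 at 1.66 without wild type array 3, and 0.538 at 0.54 without arrays 1 and 2), Mcm5 at 1.06 ± 0.40 and Mcm4 at 0.73 ± 0.24. Mcm3 overlapped between groups, at 5.35, 4.03 and 5.92 for wild type, 5.58, 6.37 and 6.16 for ob/ob vehicle and 7.10, 6.75 and 6.06 for VE mice (0.94 ± 0.47, SE, n = 3; limma adjusted p = 0.226). The 95% intervals of these genes overlap, from 0.20 to 1.26 for Mcm4 and from 0.36 to 2.22 for Mcm6, and differences between subunits were not tested. Cdc6, the other loader of the ring, stood at 0.61 ± 0.31 (limma adjusted p = 0.225).

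At the fork, Pcna, the sliding clamp of the polymerases, read 12.98, 12.86 and 12.94 for wild type, 15.00, 14.95 and 14.81 for ob/ob vehicle and 15.11, 14.34 and 14.25 for VE mice. Relative to wild type it was 3.98-fold higher in ob/ob vehicle mice (1.99 ± 0.26, SE, n = 3; limma adjusted p = 7.78e-04). Rrm1, the large subunit of ribonucleotide reductase, which makes deoxynucleotides, was higher by 1.13 ± 0.31 (limma adjusted p = 0.0377). That call ended without wild type array 1 (1.12, adjusted p = 0.0786) or 3 (0.88, 0.0805), without ob/ob vehicle array 1 (1.13, 0.0902), 2 (1.26, 0.0659) or 3 (0.99, 0.124), without VE array 2 (1.13, 0.0633), after quantile normalization (0.92, 0.0860), with array weights (1.02, 0.0753) and with only the 2 groups compared (1.13, 0.0755). Rrm2, the small subunit, read 7.38, 7.47 and 5.48 for wild type, 8.38, 7.83 and 7.42 for ob/ob vehicle and 7.42, 7.33 and 7.08 for VE mice. Wild type arrays 1 and 2 reached the ob/ob values while array 3 did not (1.10 ± 0.49, SE, n = 3; limma adjusted p = 0.171), and without arrays 1 and 2 the difference was 2.40 (adjusted p = 0.00374). Tk1, thymidine kinase, stood at 0.61 ± 0.26 (limma adjusted p = 0.158), dim on all arrays.

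The replication and mitosis genes were also compared array by array. The mean of the replication genes was 6.80 to 6.92 on the wild type arrays, 7.96 to 8.07 on ob/ob vehicle and 7.58 to 8.35 on VE arrays, and that of the mitosis genes 5.13 to 5.80, 7.24 to 7.49 and 6.91 to 7.69. Mitosis mean minus replication mean was −1.0, −1.77 and −1.42 for wild type, −0.72, −0.65 and −0.52 for ob/ob vehicle and −0.65, −0.85 and −0.67 for VE mice. All 6 ob/ob arrays lay above all 3 wild type arrays in this difference. On the wild type arrays the mitosis mean lay below the array median (6.31 to 6.37) and the replication mean above it. With Ccna2 counted as a replication gene the highest wild type array was −0.74 and the lowest ob/ob array −0.81, so the groups no longer separated fully. These means describe the listed genes and carry no test.

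**Figure D4:**
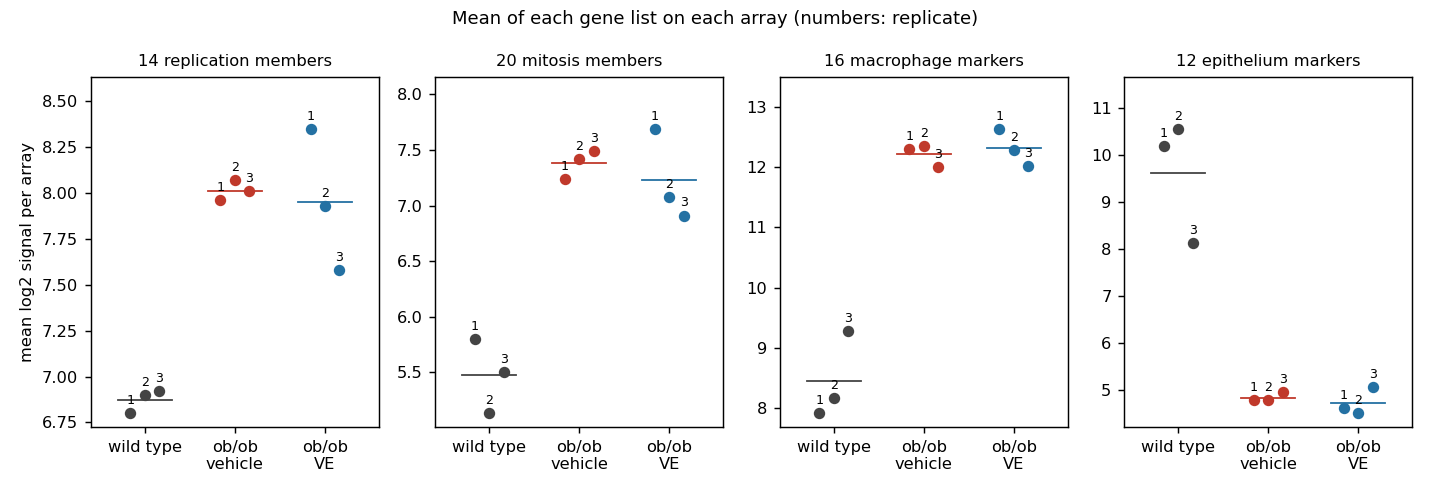
Mean log2 signal of the replication genes, the mitosis genes, 16 macrophage markers and 12 epithelium markers on each array (points numbered by replicate; bars are group means; the vertical axes differ). Wild type arrays are lowest in the first 3 panels and highest in the fourth, and VE array 1 is the highest VE array in the first 3 panels.

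Macrophage and epithelium markers differed between the same groups. Of 16 measured macrophage markers 14 were called higher in ob/ob vehicle mice, and the median over the 16 was 3.78. Lyz2 was higher by 4.67 ± 0.56 and Gpnmb by 10.05 ± 0.43. Mertk (0.68 ± 0.58) and Cd163 (−0.97 ± 0.48) did not pass, and Cd163 was the 1 marker with a difference below 0. The macrophage mean was 7.91 to 9.27 on wild type, 12.01 to 12.35 on ob/ob vehicle and 12.02 to 12.64 on VE arrays. Of 12 epithelium markers 11 were called lower (median −4.46; Prom1 by −7.63 ± 0.64 and Cdh1 by −7.25 ± 0.85), and 11 were still called lower without wild type arrays 1 and 2 (median −3.72). Smooth muscle markers were called lower in 2 of 5 cases (Myh11 and Cnn1), and 1 of 5 for mesothelium (Krt19, which is also on the epithelium list). Differences lay below 0 for 3 of 6 stromal progenitor, 0 of 8 adipocyte and 5 of 8 testis germ cell markers (medians 0.21, 0.58 and −0.12). Called higher were 1 of 6 stromal progenitor markers (Pdgfrb), 1 of 8 adipocyte markers (Cd36) and 1 of 8 testis germ cell markers (Sycp3, by 4.07 ± 0.36). They are single genes where 9.02% of all clusters were called higher. These counts were 0, 0 and 1 without wild type arrays 1 and 2. None was called for T and NK cells (0 of 9), B and plasma cells (0 of 6), neutrophils (0 of 6), mast cells (0 of 6), erythroid cells (0 of 2) or endothelium (0 of 7), with 0, 0, 1, 1, 0 and 1 at an unadjusted p under 0.05. The part of these cell types in the cell cycle result was not tested. Without wild type arrays 1 and 2 the median difference of the macrophage markers was 2.71.

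VE-treated and vehicle-treated ob/ob mice were then compared. None of the 34 genes was called by limma in either direction, and none had an unadjusted p under 0.05. Of all clusters 5, or 0.0255%, were called higher and 0 lower. The differences had a median of −0.10 and ran from −0.66 for Tpx2 (unadjusted p = 0.135 by limma) to 0.60 for Mcm3, with 14 above 0 and 20 below. For 20 of the 34 genes the 95% interval lay within 1 log2 unit of 0, so a doubling or halving lies outside it. The interval of Pcna was −0.93 to 0.22, that of Ccnb2 −0.47 to 0.95 and that of Cdt1 −0.63 to 0.37. Others were too wide for that, such as Ube2c (−1.44 to 1.28), Mki67 (−1.52 to 0.92) and Rrm2 (−1.69 to 0.49). Failing the threshold does not show that the groups are alike.

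The VE arrays differed among themselves on these genes. The median SD of the 34 genes was 0.43 in VE, 0.32 in ob/ob vehicle and 0.45 in wild type mice, against 0.26, 0.30 and 0.41 over all clusters. VE array 1 was the highest of the 3 VE arrays for 31 of the 34 genes and VE array 3 the lowest for 28, including all 14 replication genes. Mcm5 gives an example, at 7.84, 6.77 and 6.22 on VE arrays 1, 2 and 3, against 6.26, 6.82 and 6.61 in ob/ob vehicle mice. On the same arrays the macrophage mean was 12.64, 12.29 and 12.02 and the stromal progenitor mean 10.46, 8.99 and 9.29. The neutrophil mean fell in the same order as the macrophage mean (5.31, 5.25 and 4.93). The stromal progenitor mean was lowest on array 2, and the endothelium mean was lowest on array 1 (9.65, 10.33 and 9.97). The part of these cell types in the spread was not tested.

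Against wild type mice, the VE group was called higher for 22 of the 34 genes and lower for 0, with a median difference of 1.46. Over all clusters 12.4% were called higher and 7.58% lower. This comparison uses the same wild type arrays as the earlier one, so the 2 are not independent. Mitosis genes were called in 15 of 20 cases and replication genes in 7 of 14, with medians of 1.84 and 1.17, and the groups did not overlap on 25 genes, against 19.5% of clusters. Ube2c was higher by 3.69 ± 0.61, Mki67 by 3.17 ± 0.55, Ccnb2 by 2.81 ± 0.32 and Pcna by 1.64 ± 0.26 (SE, n = 3). Mcm3 (1.54 ± 0.47; limma adjusted p = 0.0440), Mcm5 (1.44 ± 0.40; 0.0307) and Nusap1 (1.42; 0.0417) passed here, having stood at 0.94, 1.06 and 1.41 in ob/ob vehicle against wild type, while Ccne2 (0.85; 0.107) and Cenpe (0.87; 0.116) did not pass. Without VE array 1 Mcm3 stood at 1.30 (adjusted p = 0.147), Mcm5 at 0.99 (0.0938), Nusap1 at 1.18 (0.144), Rrm1 at 1.03 (0.0900), Aurkb at 0.94 (0.116) and Tpx2 at 1.45 (0.0565), and none of these 6 passed. Mcm3 also lost its call without VE array 2 or any 1 of wild type arrays 1 and 2 and the ob/ob vehicle arrays (adjusted p 0.0528 to 0.121), and Nusap1 without VE arrays 2 or 3, wild type arrays 2 or 3, or ob/ob vehicle arrays 1 or 2 (0.0526 to 0.110). Aurkb lost its call without VE arrays 2 or 3, wild type array 2, or ob/ob vehicle arrays 2 or 3 (0.0537 to 0.128), and Mcm5 and Rrm1 without wild type array 1 (0.0943 and 0.0516) or VE array 2 (0.0708 and 0.0713). Without wild type arrays 1 and 2 together Mcm3 (0.72), Mcm5 (1.11), Aurkb (0.84), Mcm2 (1.33), Cdt1 (1.04), Bub1 (1.57), Kif11 (1.59) and Tpx2 (1.37) were not called. Rrm2 stood at 1.80 in that fit. The count of replication genes called fell to 4 without VE array 1, VE array 2, wild type array 1, or wild type arrays 1 and 2 together, and Ccne2 passed without VE array 3 (1.26, adjusted p = 0.0160) and Mcm6 without wild type array 3 (1.59, 0.0156).

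Further genes of the cycle, listed by function, were examined beside these. Of 50 other mitosis genes 12 were called higher in ob/ob vehicle mice, against wild type, and 0 lower, and 46 had a difference above 0 (median 0.92). Racgap1, of the cytokinesis complex centralspindlin, was higher by 3.28 ± 0.36 (SE, n = 3; limma adjusted p = 2.88e-04) and Nuf2, of the kinetochore NDC80 complex, by 2.41 ± 0.34 (adjusted p = 0.00126). Of 42 other replication genes 4 were called higher and 0 lower, a share close to the 9.02% of all clusters, with a median of 0.27. Those 4 were Dbf4 (1.31 ± 0.26) and Cdc7 (1.05 ± 0.27), which form the kinase that fires origins, Gins1 (1.16 ± 0.28), of the replicative helicase, and Pola2 (1.07 ± 0.26), of the polymerase that primes synthesis. Without wild type arrays 1 and 2, 14 other mitosis genes and 0 other replication genes were called. A list of 14 APC/C genes held core subunits, which are made throughout the cycle, and the activator Fzr1. It had 0 called and 3 with an unadjusted p under 0.05 by limma, where 5555 of all 19572 clusters had one. The median of this list was 0.10 (−0.17 after quantile normalization). Anapc10 (0.83 ± 0.26) and Anapc13 (−1.05 ± 0.42) had the largest t and did not pass.

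Regulators upstream of S phase differed gene by gene. Of the D cyclins and their kinases, Ccnd2 was higher in ob/ob vehicle mice by 3.17 ± 0.44 (SE, n = 3; limma adjusted p = 0.00112; 2.12 without wild type arrays 1 and 2), while Ccnd3 (1.23 ± 0.43; adjusted p = 0.0879) and Cdk4, at 9.88 in both groups, did not pass. Among 7 CDK inhibitors Cdkn1a, p21, an inhibitor induced by p53, stood at 8.33 ± 1.55 (SD, n = 3) for wild type, 13.53 ± 0.45 for ob/ob vehicle and 14.01 for VE mice, a difference of 5.20 ± 0.62 between the first 2 (SE; limma adjusted p = 4.62e-04). The Cdkn1a difference was 3.42 without wild type arrays 1 and 2 (adjusted p = 3.87e-04). Cdkn2c, p18, was lower at −1.67 ± 0.39 (adjusted p = 0.0179; −2.55 without those arrays), and Cdkn1b, p27, at −1.30 ± 0.35 (adjusted p = 0.0320), the latter not passing without wild type arrays 1 and 2 (−0.90, adjusted p = 0.153). Transcripts of an inhibitor and of mitosis genes were therefore higher in the same tissue samples. Of 18 E2F, pocket protein, DREAM and MMB genes 7 were called higher and 0 lower (median 0.81): the activators E2f1 (2.44 ± 0.35) and E2f3 (1.04 ± 0.26), the repressors E2f6 (1.63 ± 0.36) and E2f8 (1.58 ± 0.33), Rb1 (1.04 ± 0.29), and Lin9 (1.19 ± 0.30) and Lin54 (1.09 ± 0.25) of the core that DREAM and MMB share. Without wild type arrays 1 and 2 the count was 3, those of E2f1 (1.62), E2f3 (1.06) and E2f8 (1.85). Between VE and ob/ob vehicle mice 0 genes of these 6 lists were called by limma, with 2 other mitosis, 2 other replication, 1 D cyclin list and 2 APC/C genes at an unadjusted p under 0.05.

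**Figure D5:**
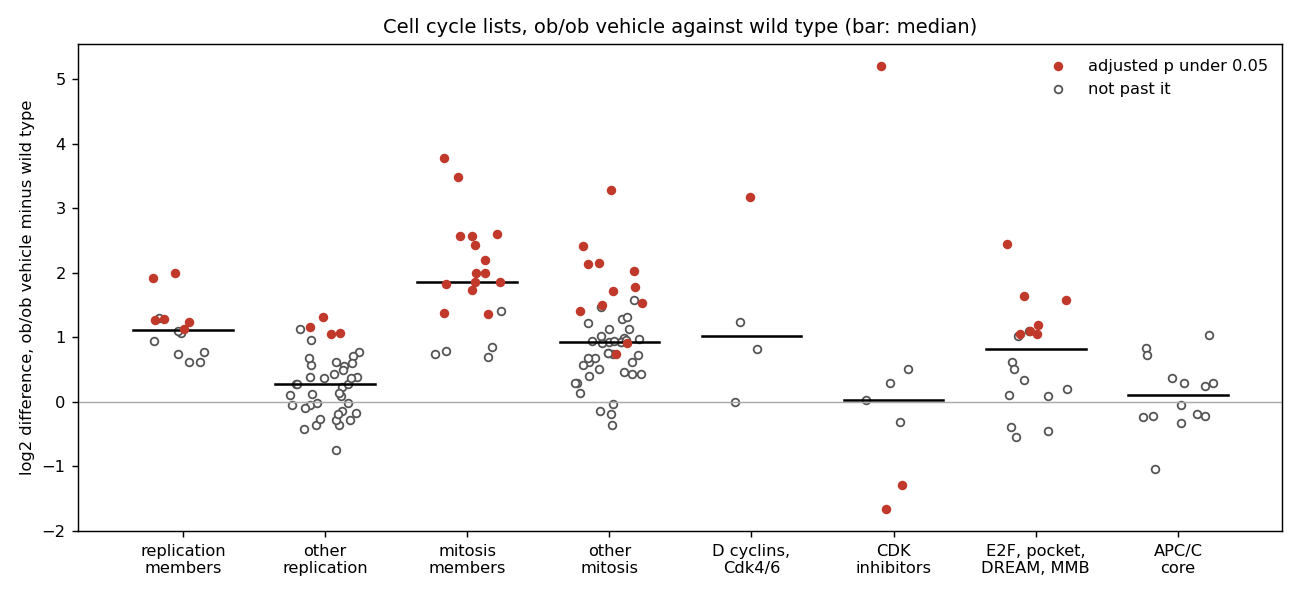
Log2 difference between ob/ob vehicle and wild type (vertical axis) for each gene of 8 cell cycle lists; filled red points passed a limma adjusted p of 0.05 and black bars are list medians. The medians were 1.11 for the 14 replication genes, 0.27 for other replication genes, 1.86 for the 20 mitosis genes and 0.92 for other mitosis genes, and Cdkn1a is the highest point of the plot.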

How the data were processed

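Per the series' design text, 9 Clariom S mouse arrays were normalized by the authors with SST-RMA in Transcriptome Analysis Console (4.0.2; 4 per the submitters' processing notes), and the deposited values are log2 signals per transcript cluster. Genome build, scanner files and detection calls were not used here. Groups came from the sample titles. Of 22206 clusters, 19572 carry 1 symbol in the platform annotation and were tested; each of the 34 genes has 1 cluster. Differences were fitted with limma 3.58.1 (R 4.3.3) as 3 group means with empirical Bayes moderation, two-sided, with Benjamini-Hochberg adjustment over all 19572 clusters per comparison; intervals are 95%. With 3 arrays in each group the smallest exact permutation p is 0.1. The code was tested on simulated arrays. Promoter words were counted as exact matches in RefSeq windows. The gene lists, their grouping and the alternatives were chosen with earlier results of these data known. Genes given on every array were 8 fixed ones, of which Ccnb1 has no cluster, and the genes with the largest and smallest t in each functional group; the rule also named, in each other list, the 2 genes of largest t, and called regulators, and other genes are named as further examples. Alternatives were other priors, array weights, normalizations, filters, thresholds, the replicate number as a block, and arrays left out.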

Additional observations from a re-analysis of the deposited data

How the results depend on the processing

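Across 21 alternatives, 14 of the 21 genes called between ob/ob vehicle and wild type and 12 of the 22 called between VE and wild type kept their call, 0 of these called values changed sign, and 0 of the 34 genes were called between VE and ob/ob vehicle. For replication genes between ob/ob vehicle and wild type, the count called was 6. It was 11 at the submitters' threshold (unadjusted p under 0.05 and fold over 1.1). That threshold and an adjusted p under 0.1 only loosened the main fit, so no called gene could lose its call under them. Of all 19572 clusters 5555 had an unadjusted p under 0.05 by limma in that comparison. With 1 array left out the count ranged from 3 to 6 (3 without wild type array 1 or ob/ob vehicle arrays 2 or 3). Between VE and wild type that count was 7, was 4 without wild type arrays 1 and 2, and ranged from 4 to 8 with 1 array left out. The median difference of replication genes between VE and wild type, 1.17, was 0.92 after quantile normalization and ranged from 0.93 to 1.33 with 1 array left out; that of mitosis genes, 1.84, ranged from 1.52 to 1.98. The low ends were those without VE array 1, and the cause of these shifts was not tested. With the replicate number as a block, 3 replication genes were called between ob/ob vehicle and wild type, and Ccne2, Mcm2, Rrm1 and Cenpe lost their call (adjusted p 0.0502 to 0.0587); between VE and wild type Mcm3 (0.0706), Mcm5 (0.0558) and Aurkb (0.0671) lost theirs. Deviations of arrays with the same number correlated at −0.06 to 0.18 and those with different numbers at −0.27 to 0.16. Of 9 arrays 5 were closest to an array of their own number. These values do not settle whether the numbers mark pairs, and the main fit did not use them as pairs. Every measured gene has 1 cluster, so averaging several clusters was not run, and Cdk1, Cdc20 and Cenpf, among the dimmest 30% of clusters, had no value in the fit without those.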
